A study of Homo sapiens with 9 samples.

Results

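The 9 genes described here, PINX1, TERT, TERF1, TERF2, TERF2IP, TINF2, ACD, POT1 and TEP1, encode the catalytic subunit of telomerase, proteins bound to it and the 6 proteins of shelterin. They were taken by name from the 19257 genes of the count and FPKM tables, and each of the 9 passed the filter on low counts. PINX1 was chosen by its lower level in both knockouts, so its values against the control libraries are given as a description, with no test. The libraries were made from A549, a human lung adenocarcinoma cell line, in 3 groups of 3. NC cells received the empty Lenti-CRISPR-V2 plasmid, a vector that carries Cas9 and a guide RNA cassette, and their genotype label is WT. OGT_KO cells received the same vector built against OGT, the enzyme that attaches a single O-GlcNAc sugar to proteins of the nucleus and cytoplasm. TR11B_KO cells received it built against TR11B, taken here to be TNFRSF11B, the gene of the secreted decoy receptor osteoprotegerin. All 3 groups therefore carry the vector. The sources used here give neither guide sequences nor clones, and each knockout's columns carry a single name with a replicate number, so an effect of a guide or clone cannot be told apart from that of the knockout. The titles number them as biological replicates without saying whether cultures were separate, so the p-values reflect spread among these libraries that may be technical.

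Telomeres are kept long by telomerase, a reverse transcriptase (TERT) that copies a short repeat from its RNA template onto chromosome ends. Shelterin covers the ends: TERF1 and TERF2 bind double-stranded repeats, POT1 binds the single-stranded overhang, and TINF2 and ACD join them, while TERF2IP sits on TERF2. PINX1 is a nucleolar protein with a G-patch, a short motif that activates RNA helicases. It binds TERF1 and TERT, inhibits telomerase and takes part in ribosome assembly. Most carcinoma lines, A549 among them, express TERT.

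Library totals lay between 38327508 and 42245970 counts. TR11B_KO replicate 2 stood apart. Its TMM factor, edgeR's correction for RNA composition, was 0.784 against 0.951 to 1.159 in the other libraries, and it had a count for 14128 genes against 14581 to 14954. Rank correlations between replicates were 0.987 to 0.99 within NC, 0.989 to 0.99 within OGT_KO and 0.96 to 0.983 within TR11B_KO. OGT itself had 967 to 1239 counts in NC, 927 to 1255 in OGT_KO and 356 to 716 in TR11B_KO. Its mRNA was not detectably lower in OGT_KO (log2 fold change -0.17, edgeR adjusted p = 0.607) and was lower in TR11B_KO (-0.99, adjusted p = 0.00393). Of 20 alternative settings, an offset for gene length and GC content was the only setting that changed the OGT_KO result. There OGT was called lower in OGT_KO (-0.43, edgeR adjusted p = 0.0291). TNFRSF11B, at 13, 15 and 3 counts in NC, 1, 0 and 0 with the OGT plasmid and 3, 1 and 0 with the TR11B plasmid, was too low to test. The groups are therefore named by their labels, and every direction below rests on those labels. Of 9 markers of lung adenocarcinoma cells, 7 had counts in NC, with a summed level of 10800 to 12300 FPKM; OGT_KO had 6 (6720 to 7740 FPKM) and TR11B_KO 7 (8830 to 11000 FPKM). CDH1 was at 0 in all 3 groups, AKR1B10 at 0 in NC and OGT_KO, EPCAM at 0 in OGT_KO and ALDH1A1 at 0 in TR11B_KO. The count table held 2 of 5 leukocyte markers, 3 of 4 endothelial markers and 2 of 5 fibroblast markers, so the sums cover those alone. Summed levels of leukocyte markers lay between 1.6 and 3.84 FPKM, those of endothelial markers at or under 0.0857 and those of fibroblast markers at or under 0.139. The part of these differences in the results below was not tested.

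The members covered a wide range of levels in control cells. By mean FPKM, a unit scaled to gene length, the order in NC was ACD, TINF2, PINX1, TERT, TERF2IP, TERF2, TEP1, TERF1 and POT1, and no neighbours in that order overlapped between libraries. ACD stood above 91.9% of tested genes and POT1 above 12.2%. TERT, which most normal somatic cells keep silent, stood above 74.5%, and PINX1 above 77.7%. The within-library FPKM ratio of ACD to POT1, whose proteins work as a pair, was 840, 679 and 816 in the 3 NC libraries. Members with GC-rich transcripts had the higher levels: TERT (65.7% GC), ACD (61.8%) and PINX1 (60.1%) were among the 4 highest, and TERF1 (45.2%) and POT1 (37.6%) the 2 lowest. The rank correlation of level with GC content over the 9 genes was 0.817 in NC, 0.55 in OGT_KO and 0.633 in TR11B_KO, beside 0.49, 0.465 and 0.51 over 12012 tested genes; the points share the same libraries, and the values are a description. In OGT_KO the order was ACD, TINF2, TERF2IP, TERF2, TERT, PINX1, TEP1, TERF1 and POT1, with TERF2 and TERT overlapping and TERF1 and POT1 overlapping. In TR11B_KO it was ACD, TINF2, TERF2IP, TERT, TERF2, PINX1, TEP1, TERF1 and POT1. There every neighbouring pair from TINF2 to PINX1 overlapped, as did TEP1 and TERF1. PINX1 thus moved from the third place in NC to the sixth in each knockout.

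**Figure D1:**
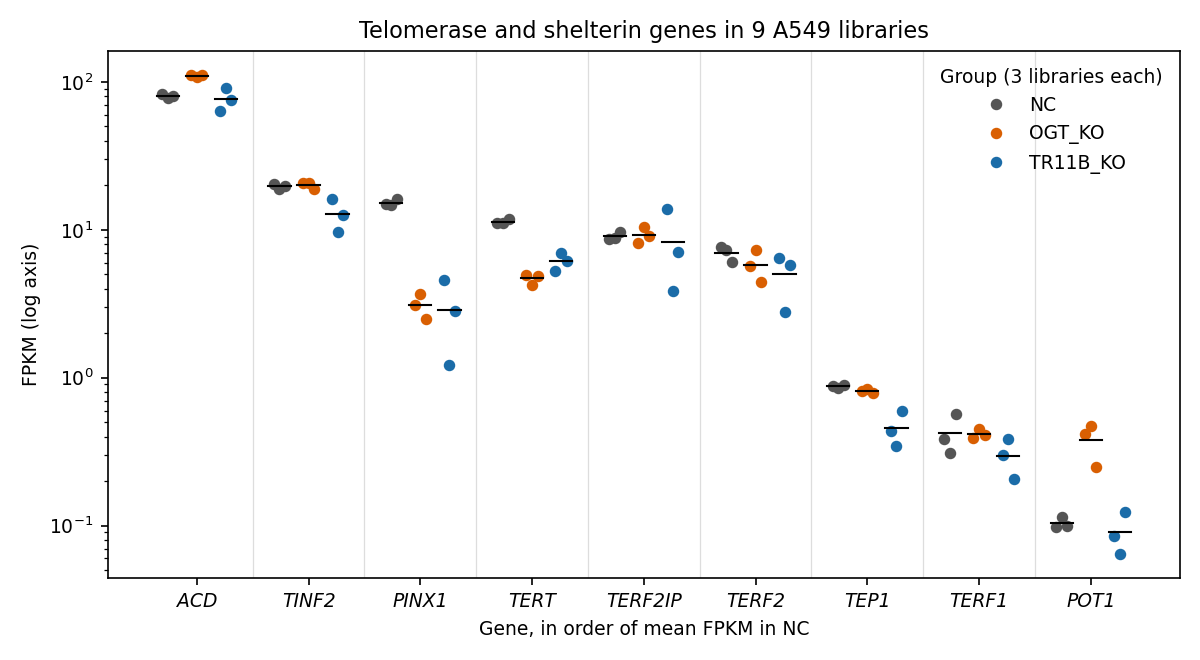
FPKM (log axis) of the 9 genes in each of the 9 libraries, in order of mean level in NC; points are libraries and short lines are group means. PINX1 and TERT lie lower in both knockouts than in NC, POT1 lies higher in OGT_KO, and the 3 TR11B_KO points of PINX1 and TERF2IP are spread the most.

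PINX1, the telomerase inhibitor, was the member with the lowest levels relative to control. It had 22.7, 22.8 and 24.6 CPM (counts scaled to the TMM-corrected library total) in the NC libraries, 4.48, 4.91 and 3.67 with the OGT plasmid, and 7.05, 2.39 and 4.58 with the TR11B plasmid. The raw counts behind these were 951 to 967, 154 to 218 and 74 to 296. Neither knockout overlapped NC, and the TR11B_KO libraries spread further than the OGT_KO libraries and enclosed them. The log2 difference from NC was -2.42 ± 0.31 (SE, n = 3 per group) in OGT_KO, a level 5.36-fold lower, and -2.31 ± 0.31 in TR11B_KO, 4.97-fold lower. These values chose the gene and carry no p. Both differences use the same 3 NC libraries. Without TR11B_KO replicate 2, which has the lowest PINX1 level, the second value was -1.98. The direct contrast compares knockout libraries that the choice of PINX1 also used. Choosing a gene that is low in both favours a small difference, so the contrast is a description with no test. OGT_KO minus TR11B_KO was -0.11 ± 0.31, with a 95% interval from -0.76 to 0.55. Without TR11B_KO replicate 2 it was -0.44. In bulk RNA, fewer cells that express a gene and less RNA per cell cannot be told apart.

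TERT, the catalytic subunit, fell with either plasmid. Its levels were 44.1, 44.3 and 47.2 CPM in NC, against 18.6, 14.8 and 18.7 with the OGT plasmid and 21.2, 35.8 and 26.0 with the TR11B plasmid. Each knockout lay below all NC libraries, and OGT_KO lay below TR11B_KO. The log2 fold change was -1.38 ± 0.21 in OGT_KO (2.6-fold lower, edgeR quasi-likelihood test, adjusted p = 0.000723 over 12574 genes) and -0.71 ± 0.21 in TR11B_KO (1.63-fold lower, adjusted p = 0.0218). The 2 knockouts differed by -0.67 ± 0.21 (adjusted p = 0.0242). The OGT_KO fall held under the 20 alternatives tried, with adjusted p at most 0.00877. The TR11B_KO call ended without any 1 of the NC libraries (adjusted p = 0.0629 to 0.0659), without TR11B_KO replicate 1 (0.0569) or replicate 3 (0.069), and with an offset for gene length (-0.55, 0.0921); the difference between knockouts lost its call without any 1 of the OGT_KO libraries (0.0528 to 0.119). That difference was -0.38 (adjusted p = 0.104) with library totals as the scale, -0.36 (0.0307) with length and GC content, and -0.32 (0.102) and -0.37 (0.103) by limma on log2(FPKM + 1) and log2(FPKM + 0.1). It also missed the threshold with the 2 groups alone (0.0587).

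The within-library FPKM ratio of PINX1 to TERT, which does not depend on library scaling, was 1.35, 1.34 and 1.36 in NC. It was 0.628, 0.864 and 0.511 with the OGT plasmid and 0.869, 0.174 and 0.46 with the TR11B plasmid. Control libraries thus held more PINX1 than TERT per length, and the 6 knockout libraries held less. The ratio contains the value on which PINX1 was chosen and was not tested.

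Among the shelterin genes the clearest change was in POT1, which protects the single-stranded overhang as the partner of ACD. POT1 had 0.382, 0.447 and 0.383 CPM in NC, against 1.52, 1.6 and 0.928 with the OGT plasmid and 0.333, 0.322 and 0.512 with the TR11B plasmid, from 15 to 19, 39 to 71 and 10 to 20 raw counts. Every OGT_KO library lay above the 6 others. POT1 rose in OGT_KO by 1.73 ± 0.41 on the log2 scale (3.32-fold, adjusted p = 0.0107), showed no detectable difference in TR11B_KO (-0.05 ± 0.44, adjusted p = 0.944, 95% interval -0.98 to 0.88), and differed between the knockouts by 1.78 ± 0.42 (adjusted p = 0.00539). The ACD to POT1 ratio in OGT_KO was 270, 228 and 446. The call in OGT_KO ended without NC replicate 1 (adjusted p = 0.0505), OGT_KO replicate 1 (0.0523) or OGT_KO replicate 2 (0.0544), and POT1 fell out of the test under a stricter filter; the difference between knockouts kept its call in each of the 19 alternatives that tested it. POT1 overlaps POT1-AS1 on the opposite strand by 111 bases, and that gene had 0 to 7 counts.

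**Figure D2:**
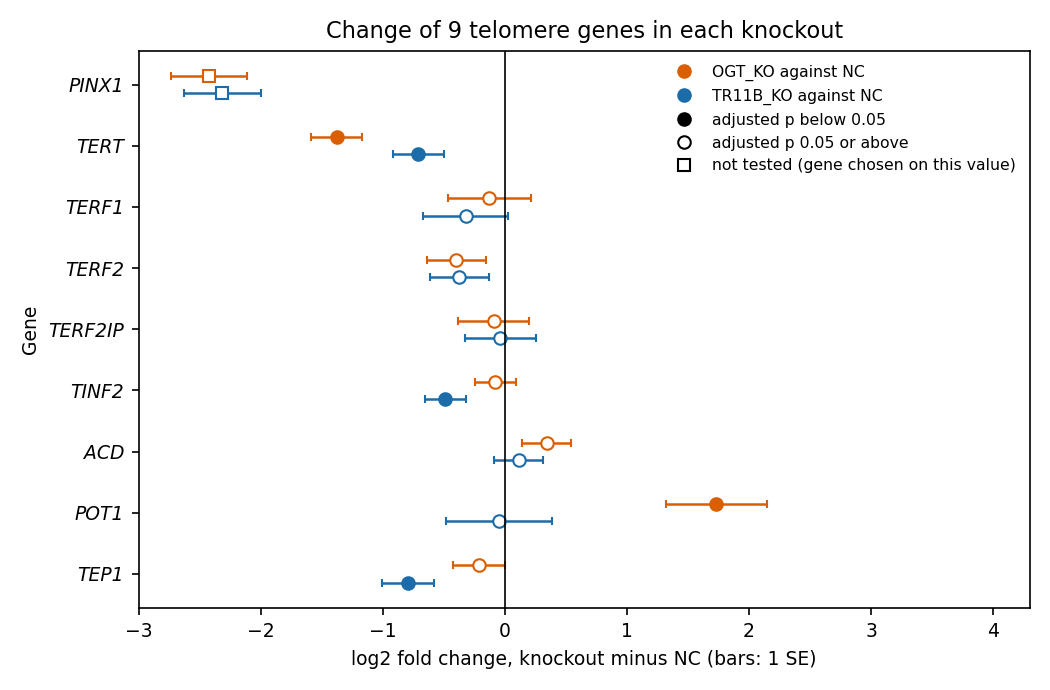
Log2 fold change of each gene in each knockout against NC, with bars of 1 standard error; filled points have an edgeR adjusted p below 0.05, and squares mark PINX1, which was not tested. TERT lies left of 0 in both knockouts, and POT1 lies at 1.73 in OGT_KO and at -0.05 in TR11B_KO.

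ACD and TINF2, the linking subunits, were the shelterin genes with the highest levels. ACD had 168.7, 159.6 and 164.2 CPM in NC, against 216.4, 191.6 and 217.4 with the OGT plasmid and 130.1, 238.2 and 164.0 with the TR11B plasmid. OGT_KO lay above NC in all 3 libraries, but the difference of 0.34 ± 0.20 did not pass the test (adjusted p = 0.25). It passed in 5 of 20 alternatives. These were without TR11B_KO replicate 2 (0.35, adjusted p = 0.0315), with the 2 groups alone (0.35, 0.0077) and with length and GC content (0.44, 0.00517). The others were library totals as the scale (0.46, 0.0384) and limma on log2(FPKM + 0.1) (0.46, 0.0394). In TR11B_KO the value was 0.11 ± 0.20 (adjusted p = 0.711), and TR11B_KO replicate 2 alone lay above all NC libraries. OGT_KO minus TR11B_KO was 0.23 ± 0.20 for ACD (adjusted p = 0.397), a difference that passed in 5 of 20 alternatives. TINF2 had 44.6, 41.3 and 43.0 CPM in NC, against 43.1, 39.5 and 39.5 with the OGT plasmid and 35.5, 27.1 and 29.3 with the TR11B plasmid. It fell in TR11B_KO by 0.49 on the log2 scale (SE 0.17, adjusted p = 0.0452), with all 3 libraries below NC, and was at -0.08 ± 0.17 in OGT_KO (adjusted p = 0.789). The TINF2 fall lay near the threshold: it lost its call in 13 of 20 alternatives, among them the loss of any 1 library other than TR11B_KO replicate 1 (adjusted p = 0.0537 to 0.151). OGT_KO minus TR11B_KO was 0.41 ± 0.17 for TINF2 (adjusted p = 0.0771), a difference that passed in 6 of 20 alternatives. Within libraries the FPKM ratio of TINF2 to ACD was 0.247, 0.242 and 0.245 in NC, against 0.186, 0.193 and 0.17 with the OGT plasmid and 0.255, 0.106 and 0.167 with the TR11B plasmid. The OGT_KO ratios lay below those of NC without overlap, and the TR11B_KO ratios overlapped them.

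TERF1, TERF2 and TERF2IP, the subunits that bind double-stranded repeats and their partner, did not pass the test in any comparison when all 9 libraries were fitted. TERF1, the direct partner of PINX1, was low throughout, at 1.7, 1.36 and 2.53 CPM in NC, against 1.64, 1.73 and 1.74 with the OGT plasmid and 1.33, 2.19 and 0.973 with the TR11B plasmid. Its differences from NC were -0.13 ± 0.34 (adjusted p = 0.834) and -0.32 ± 0.35 (adjusted p = 0.521), with 95% intervals of -0.86 to 0.60 and -1.06 to 0.42. TERF1 has processed pseudogenes, and how shared reads were counted is not given in the sources used here. TERF2, which shields ends from being joined, had 22.8, 21.8 and 18.0 CPM in NC, against 16.0, 18.8 and 12.7 with the OGT plasmid and 19.2, 10.7 and 18.3 with the TR11B plasmid. The groups overlapped, at -0.40 ± 0.24 (adjusted p = 0.274) and -0.37 ± 0.24 (adjusted p = 0.275). With the 2 compared groups alone TERF2 passed in OGT_KO (-0.39, edgeR adjusted p = 0.0307). TERF2IP had 18.3, 18.6 and 20.4 CPM in NC, against 16.4, 19.2 and 18.3 with the OGT plasmid and 29.4, 10.4 and 15.9 with the TR11B plasmid, where its libraries lay on both sides of NC. Its differences were -0.09 ± 0.29 (adjusted p = 0.864) and -0.04 ± 0.29 (adjusted p = 0.939). TERF2IP overlaps KARS1 on the opposite strand by 858 bases; KARS1 had 2983 to 12214 counts, and whether strand was used in counting is not given in the sources used here.

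TEP1, a telomerase-associated protein that is also part of the vault particle, fell in TR11B_KO. It had 9.37, 9.16 and 9.58 CPM in NC, against 8.28, 7.86 and 8.14 with the OGT plasmid and 4.74, 4.77 and 6.74 with the TR11B plasmid, and the 3 groups did not overlap. The log2 fold change was -0.79 ± 0.21 in TR11B_KO (1.73-fold lower, adjusted p = 0.0147) and -0.21 ± 0.21 in OGT_KO (adjusted p = 0.522). The knockouts differed by 0.58 ± 0.21 (adjusted p = 0.0499), a call lost in 16 of 20 alternatives. TEP1 has the longest transcript of the 9 (10833 bases), and the 2515 longest tested genes had a median log2 fold change of -0.31 in TR11B_KO, against 0.42 for the 2515 shortest, among which is PINX1 (1546 bases). With an offset for length the TEP1 value was -0.48 (adjusted p = 0.121) and with length and GC content -0.28 (adjusted p = 0.283), while PINX1 was at -2.60 and -2.64. The TEP1 call also ended without NC replicate 1 (adjusted p = 0.0557) or NC replicate 2 (0.0512).

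Counted over the 8 genes other than PINX1, OGT_KO had 1 called higher (POT1) and 1 lower (TERT), where 8.26% of 12574 tested genes were called higher and 10.1% lower. TR11B_KO had 0 higher and 3 lower (TERT, TINF2 and TEP1), against 13.2% and 14.3%; at an unadjusted p under 0.05, and by DESeq2, 0 were higher as well. Between the knockouts 2 were higher in OGT_KO (POT1, TEP1) and 1 lower (TERT), against 16.7% and 16.5%. In OGT_KO 4 of the 8 did not overlap NC (ACD and POT1 above, TERT and TEP1 below), against 49.8% of tested genes, and in TR11B_KO 3 of 8 (TERT, TINF2 and TEP1, all below), against 40.9%. Read against these shares the counts differ little from the background; the 3 lower calls in TR11B_KO are the furthest from it. The median log2 fold change of the 8 was -0.11 in OGT_KO and -0.35 in TR11B_KO, where that of all tested genes was 0.03 and -0.01.

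The stretches around the start sites of TERT and POT1 are shown because these members changed the most in OGT_KO among those tested, in opposite directions. The sequences are RefSeq's, on GRCh38.p14, from 250 bases before to 50 bases after the start, written 5′ to 3′ on the gene's strand: chr5:1295019-1295318 for TERT and chr7:124929776-124930075 for POT1, both on the minus strand. Capitals mark the E-box CACGTG, the site bound by MYC with MAX, and the GC box GGGCGG, bound by SP1, each searched on both strands.
TERT: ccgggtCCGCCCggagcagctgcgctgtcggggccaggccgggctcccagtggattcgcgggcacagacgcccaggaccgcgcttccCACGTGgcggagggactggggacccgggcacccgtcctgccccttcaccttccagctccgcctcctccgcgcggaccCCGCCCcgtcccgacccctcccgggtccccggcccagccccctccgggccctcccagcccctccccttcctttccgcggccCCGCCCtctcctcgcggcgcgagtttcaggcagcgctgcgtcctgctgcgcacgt
POT1: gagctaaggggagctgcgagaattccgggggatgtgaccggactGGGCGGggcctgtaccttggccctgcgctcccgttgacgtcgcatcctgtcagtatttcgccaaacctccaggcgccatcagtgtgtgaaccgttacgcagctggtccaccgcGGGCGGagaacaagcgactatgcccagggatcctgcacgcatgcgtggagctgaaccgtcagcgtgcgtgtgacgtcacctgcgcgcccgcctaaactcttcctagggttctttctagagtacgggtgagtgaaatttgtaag

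The TERT stretch, 77.3% G and C, held 1 whole E-box, beginning 163 bases before the start, and 3 GC boxes. It ends in CACGT, an E-box without its last base, and a motif cut by the edge was not counted. The POT1 stretch, 60.3% G and C, held 2 GC boxes. Of the 6 members with an entry in the promoter table (TERT, TERF2IP, TINF2, ACD, POT1 and TEP1), 1 held the E-box and 6 the GC box. Over all 35116 promoters of the table the shares were 7.26% and 45.0%. These are matches of letters, not measured binding.

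Of the 17 tested regulators of TERT on the list used here, OGT_KO had 0 higher and 3 lower, beside 8.26% and 10.1% of all tested genes. TR11B_KO had 0 higher and 5 lower, beside 13.2% and 14.3%. MYC, which activates TERT through E-boxes, fell in both, from 3173 to 4407 raw counts in NC to 1409 to 1706 in OGT_KO and 400 to 1730 in TR11B_KO; its log2 fold changes were -1.46 ± 0.31 (adjusted p = 0.00523) and -1.73 ± 0.31 (adjusted p = 0.00147). WT1, here the Wilms tumour transcription factor gene and not a library name, fell by 0.82 (adjusted p = 0.0406) and by 0.99 (adjusted p = 0.0135) on the log2 scale. SP1 fell in TR11B_KO alone among the tests against NC (-0.96, adjusted p = 0.0134; 0.18 in OGT_KO, adjusted p = 0.664), and the knockouts differed in SP1 by 1.13 (adjusted p = 0.00416). ETS2 fell in OGT_KO (-0.88, adjusted p = 0.0264). The ETS2 and WT1 calls in OGT_KO ended without any 1 of the 6 libraries compared (adjusted p = 0.0509 to 0.111 and 0.0519 to 0.157), WT1 in TR11B_KO without NC replicate 2 (0.0559), and SP1 without NC replicate 1 (0.0596) or 2 (0.063). For the list, 1 lower call was left in OGT_KO without any 1 of those 6 libraries and 6 were made without TR11B_KO replicate 2. In TR11B_KO 2 were left without NC replicate 1 or 2. The counts over all genes moved the same way. Their lower calls in OGT_KO, 1264 with all 9 libraries, were 649 to 870 and 2451 in those settings. In TR11B_KO the 1803 lower calls became 1002 and 957. By edgeR at an unadjusted p under 0.05 and by DESeq2, 0 of the 17 were higher in either knockout.

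Telomerase also needs the proteins that fold, process and carry its RNA. The RNA itself, TERC, was not analysed here. Of 16 tested genes of this kind, 0 were higher and 2 lower in OGT_KO, where 8.26% and 10.1% of all tested genes were. In TR11B_KO 2 were higher and 4 lower, where the shares over all genes were 13.2% and 14.3%, so these counts differ little from the background. DKC1, the pseudouridine synthase that stabilizes the telomerase RNA, had 3552 to 5600 raw counts in NC, 1496 to 1816 in OGT_KO and 558 to 3353 in TR11B_KO. It fell in both, by 1.69 on the log2 scale (SE 0.37, adjusted p = 0.00688) and by 1.26 (SE 0.37, adjusted p = 0.0211). TOE1 and TGS1, which trim the end and modify the cap of the telomerase RNA, fell in TR11B_KO (-1.64 ± 0.26, adjusted p = 0.000676, and -1.04 ± 0.23, adjusted p = 0.00469). In OGT_KO TOE1 was at -0.65 (adjusted p = 0.0838) and TGS1 at -0.64 (adjusted p = 0.0617). RUVBL1, an ATPase of telomerase assembly, fell in OGT_KO (-0.62 ± 0.17, adjusted p = 0.0225). The RUVBL1 call ended without any 1 of the 6 libraries compared (adjusted p = 0.0555 to 0.0906), and the DKC1 call in TR11B_KO without NC replicate 1 (0.0697), NC replicate 2 (0.0713) or TR11B_KO replicate 3 (0.0564). The list's lower calls in OGT_KO numbered 1 without any 1 of those 6 libraries and 6 without TR11B_KO replicate 1 or 2; in TR11B_KO the higher calls were 0 without any 1 of NC replicates 1 to 3, OGT_KO replicates 1 and 2 or TR11B_KO replicate 3, 1 without OGT_KO replicate 3 and 6 without TR11B_KO replicate 2, and the lower calls were 2 without NC replicate 1, NC replicate 2 or TR11B_KO replicate 3. With the length offset 0 were higher in TR11B_KO. With length and GC content 5 were lower in OGT_KO, as by DESeq2, and 1 was higher in TR11B_KO. In OGT_KO an unadjusted p under 0.05 gave 1 higher gene and DESeq2 gave 0.

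Of 23 tested partners of shelterin (tankyrases, nucleases and DNA damage sensors that act at telomeres), 7 were higher and 0 lower in OGT_KO, beside 8.26% and 10.1% of all tested genes. In TR11B_KO 1 was higher and 4 lower, beside 13.2% and 14.3%, and with the length offset 2 were higher and 2 lower. The list median was 0.45 in OGT_KO, where that of all tested genes was 0.03, and -0.24 in TR11B_KO, where it was -0.01. The TR11B_KO median was 0.022 with the length offset and -0.12 without TR11B_KO replicate 2. RAD50, of the MRN complex, rose from 50 to 57 raw counts in NC to 179 to 253 in OGT_KO (1.96 ± 0.31, adjusted p = 0.000827) and had 23 to 39 in TR11B_KO (-0.71 ± 0.33, adjusted p = 0.124). The kinase gene PRKDC rose in OGT_KO (0.81 ± 0.22, adjusted p = 0.0198) and fell in TR11B_KO (-1.10 ± 0.22, adjusted p = 0.00284). ATM, the kinase that TERF2 restrains at chromosome ends, did the same (1.26 ± 0.34, adjusted p = 0.0201, and -1.40 ± 0.38, adjusted p = 0.0143). The 2 knockouts differed in RAD50 by 2.67 (adjusted p = 5.57e-05), in PRKDC by 1.91 (adjusted p = 4.03e-05) and in ATM by 2.66 (adjusted p = 0.000168). These differences were not examined with the length offset. In this contrast the 2515 longest tested genes had a median of 0.50 and the 2515 shortest -0.32. The list had 10 genes higher in OGT_KO than in TR11B_KO, and 4 with the length offset. Over all genes 2104 were higher, and 1454 with that offset. ERCC1, a nuclease subunit, rose in TR11B_KO (0.63 ± 0.20, adjusted p = 0.0329).

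Several of these calls ended when 1 library was left out. In OGT_KO the PRKDC call ended without NC replicate 1 (adjusted p = 0.0955), NC replicate 3 (0.0847) or OGT_KO replicate 2 (0.126), and the ATM call without NC replicate 1 (0.103) or 3 (0.0775) and without OGT_KO replicate 1 (0.0641) or 2 (0.0894). In TR11B_KO the ATM call ended without NC replicate 2 (0.094), and the ERCC1 call without NC replicate 1 (0.128), 2 (0.111) or 3 (0.0602) or OGT_KO replicate 1 (0.0566). With the length offset PRKDC in OGT_KO was at 0.54 (0.0596), and with length and GC content ATM there was at 0.72 (0.12). ERCC1 lost its call with the 2 groups alone (0.0747) and with the replicate block (0.0677), and ATM in TR11B_KO with the 2 groups alone (0.0513). The RAD50 rise and the PRKDC fall kept their calls under each alternative; PRKDC was at -0.59 in TR11B_KO with length and GC content. The 7 higher calls of shelterin partners in OGT_KO became 1 without NC replicate 1, NC replicate 3 or OGT_KO replicate 2, 3 without OGT_KO replicate 1, 4 without NC replicate 2 or OGT_KO replicate 3, and 4 with the length offset. The 4 lower calls in TR11B_KO became 1 without NC replicate 2, and 2 without NC replicate 1 or any 1 OGT_KO library. They also became 2 with the length offset. Calls over all genes fell in these settings too. In OGT_KO the 1039 higher calls became 423 to 578 without any 1 NC or OGT_KO library, and 921 with the length offset. In TR11B_KO the 1803 lower calls became 957 without NC replicate 2 and 1002 without NC replicate 1. They became 1529 to 1588 without any 1 OGT_KO library and 1332 with the length offset. Among shelterin partners in OGT_KO, an unadjusted p under 0.05 gave 2 lower genes and DESeq2 gave 1.

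**Figure D3:**
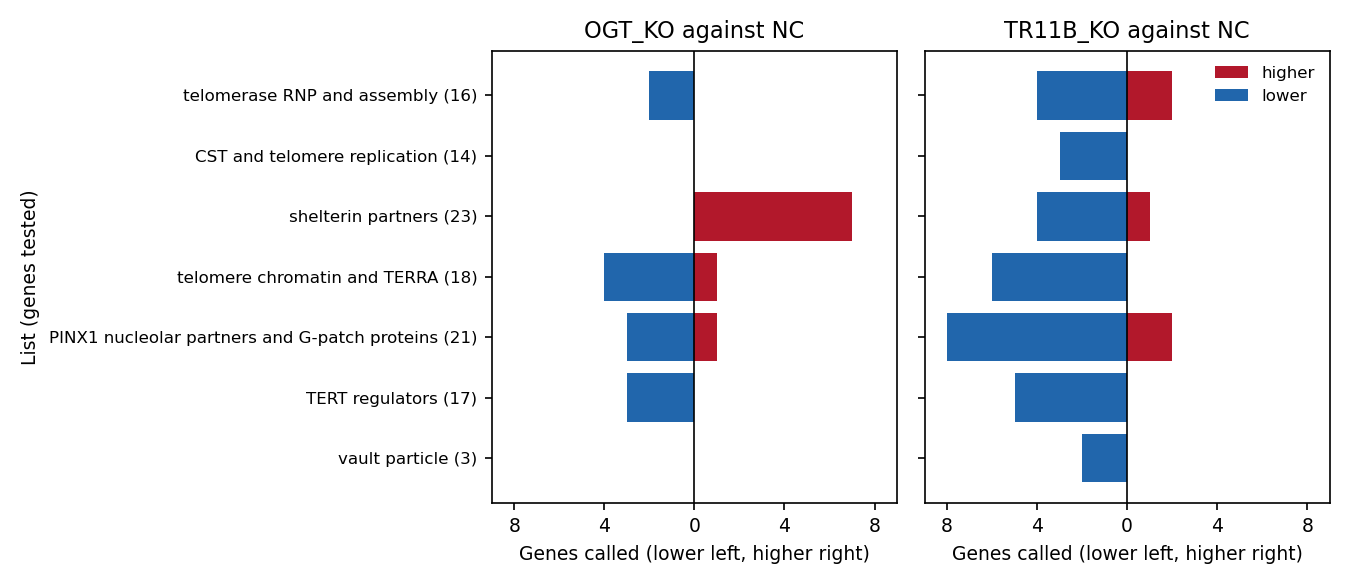
Number of genes called lower (left) and higher (right) at an edgeR adjusted p under 0.05 in each list of telomere-related genes, with the number tested in brackets. Shelterin partners have 7 higher calls in OGT_KO, and the bars of TR11B_KO lie mostly to the left.

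A list drawn up around PINX1 held nucleolar proteins, RNA helicases and G-patch proteins, 21 tested. A place on it does not mean that a protein binds PINX1. OGT_KO had 1 higher and 3 lower, beside 8.26% and 10.1% of all tested genes. TR11B_KO had 2 higher and 8 lower, beside 13.2% and 14.3%. The list medians were -0.13 and -0.24, where those of all tested genes were 0.03 and -0.01. DHX37, a ribosome assembly helicase, fell in both (-1.40 ± 0.22, adjusted p = 0.000798, and -0.84 ± 0.22, adjusted p = 0.0111). GNL3L, a nucleolar GTPase that binds TERF1, fell in both as well (-0.91 ± 0.19, adjusted p = 0.00444, and -1.01 ± 0.19, adjusted p = 0.00176). So did CMTR1, a G-patch cap methyltransferase (-0.63 ± 0.15, adjusted p = 0.0111, and -1.14 ± 0.15, adjusted p = 0.000273). RBM5, a G-patch splicing factor, fell in TR11B_KO (-1.35 ± 0.19, adjusted p = 0.000408) and was at -0.52 in OGT_KO (adjusted p = 0.0708). With the length offset DHX37 was at -0.61 in TR11B_KO (adjusted p = 0.082), and the CMTR1 call in OGT_KO ended without NC replicate 1 (0.0534) or 2 (0.0563) and without OGT_KO replicate 2 (0.0544) or 3 (0.0604). The 1 higher call of the list in OGT_KO was lost without either of NC replicates 1 and 3 or either of OGT_KO replicates 1 and 2, and the 2 higher calls in TR11B_KO numbered 0 without NC replicate 1 or 2. Over all genes the higher calls in OGT_KO were 423 to 577 in those settings, against 1039 with all 9 libraries. In TR11B_KO they were 864 and 856, against 1666.

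Of 18 tested genes of telomere chromatin and of the telomeric RNA TERRA, 1 was higher and 4 lower in OGT_KO, beside 8.26% and 10.1% of all tested genes. In TR11B_KO 0 were higher and 6 lower, beside 13.2% and 14.3%. With the length offset the counts were 0 higher and 2 lower in OGT_KO and 0 and 3 in TR11B_KO. UPF1, the helicase of nonsense-mediated decay that also clears TERRA, fell in both (-0.83 ± 0.16, adjusted p = 0.00355, and -1.33 ± 0.16, adjusted p = 0.000171). SUN1, which tethers telomeres to the nuclear envelope, fell in both (-0.99 ± 0.18, adjusted p = 0.00213, and -1.15 ± 0.18, adjusted p = 0.0007). SMG6, a decay nuclease that associates with telomerase, fell in TR11B_KO (-1.27 ± 0.23, adjusted p = 0.00153) and was at -0.02 in OGT_KO (adjusted p = 0.97). These 5 calls held under each alternative, although with length and GC content SUN1 was at -0.64 and SMG6 at -0.83 in TR11B_KO. CBX5, a heterochromatin protein, rose in OGT_KO (0.76 ± 0.23, adjusted p = 0.0369), a call that ended without any 1 of the 6 libraries compared or TR11B_KO replicate 3 (adjusted p = 0.0511 to 0.154), and with the length offset (0.0974) or length and GC content (0.37, 0.1). The lower calls in OGT_KO numbered 2 without any 1 of those libraries other than NC replicate 3, the higher calls there 0 without any 1 of the 6 libraries compared, 2 without TR11B_KO replicate 1 and 4 without TR11B_KO replicate 2, and the lower calls in TR11B_KO 3 without NC replicate 1 or 2. At an unadjusted p under 0.05, and by DESeq2, 0 of the 18 were higher in TR11B_KO.

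Of 14 tested genes of the CST complex and of telomere replication, 0 were called in OGT_KO, beside 8.26% higher and 10.1% lower of all tested genes. An unadjusted p under 0.05 by edgeR gave 1 higher and 1 lower there, and DESeq2 gave 0 higher and 1 lower. In TR11B_KO 0 were higher (0 also at the unadjusted p and by DESeq2) and 3 lower, where 13.2% and 14.3% of all tested genes were called. SAMHD1, a nucleotide hydrolase, fell in TR11B_KO (-1.25 ± 0.26, adjusted p = 0.00342), as did the polymerase alpha subunit genes POLA1 (-1.34 ± 0.33, adjusted p = 0.00929) and POLA2 (-0.46 ± 0.16, adjusted p = 0.0448). POLA1 lost its call without NC replicate 2 (adjusted p = 0.0561) and POLA2 without any 1 library other than NC replicate 3 (0.0535 to 0.164). With the length offset POLA2 was at -0.23 (0.33); with length and GC content it was at -0.084 (0.598) and POLA1 at -0.92 (0.0626), which left 1 lower call of the 3. Without NC replicate 2 the 3 lower calls became 1, and without TR11B_KO replicate 2 the OGT_KO comparison gave 2 lower. Over all genes the lower calls went from 1803 to 957 in the first case and from 1264 to 2451 in the second. In the vault particle, to which TEP1 belongs, PARP4 fell with TEP1 in TR11B_KO (-1.82 ± 0.28, adjusted p = 0.000622, from 213 to 270 raw counts in NC to 35 to 87) and was at -0.03 in OGT_KO (adjusted p = 0.952). MVP, the major vault protein gene, was at 0.52 ± 0.24 in OGT_KO (adjusted p = 0.135) and 0.56 ± 0.24 in TR11B_KO (adjusted p = 0.0913). MVP passed in OGT_KO without TR11B_KO replicate 1 (0.0364) or 2 (0.00202) and with the 2 groups alone (0.000202). There it also passed with length and GC content (0.00157), library totals (0.025), no low-count filter (0.0432) and limma on log2(FPKM + 0.1) (0.03). In TR11B_KO it passed without TR11B_KO replicate 1 (0.84, adjusted p = 0.00412) and with no low-count filter (0.0177). Of the 3 vault genes 2 were called lower in TR11B_KO, beside 14.3% of all tested genes. The 2 calls became 1 without NC replicate 1 or 2, where the lower calls over all genes went from 1803 to 1002 and 957. They also became 1 with the length offset, under which the TEP1 call ended.

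PINX1 lies at chr8:10764961-10839875 on the minus strand. Of the protein-coding genes in the count table with a start within 1 Mb of either end, MSRA, SOX7, MTMR9, NEIL2 and FDFT1 were tested. RP1L1 and FAM167A, with at most 6 counts in any library, were not. Genes of the region that the count table lacks are not covered. None of these neighbours fell past the test in either knockout. MSRA, a methionine sulfoxide reductase gene, was at -0.62 ± 0.32 in OGT_KO (adjusted p = 0.186) and 0.29 ± 0.31 in TR11B_KO (adjusted p = 0.515). SOX7, 34.5 kb from PINX1, was at -1.57 ± 0.84 and 0.30 ± 0.75 (adjusted p = 0.208 and 0.794), from 2 to 24 counts, which leaves an interval of -3.37 to 0.22 in OGT_KO. MTMR9 was at -0.42 ± 0.33 (adjusted p = 0.395) and -0.26 ± 0.33 (adjusted p = 0.59), and NEIL2, a DNA glycosylase gene, at -0.35 ± 0.31 (adjusted p = 0.454) and 0.44 ± 0.30 (adjusted p = 0.301), the latter 0.81 without TR11B_KO replicate 2 (adjusted p = 0.000622). FDFT1, the squalene synthase gene 955.7 kb away, rose in both (0.53 ± 0.16, adjusted p = 0.0335, and 0.80 ± 0.16, adjusted p = 0.0029), the first call ending without any 1 of the 6 libraries compared or TR11B_KO replicate 3 (adjusted p = 0.0501 to 0.14). PINX1-DT, the divergent transcript, had 4 counts in TR11B_KO replicate 2 and 0 in the other 8 libraries.

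**Figure D4:**
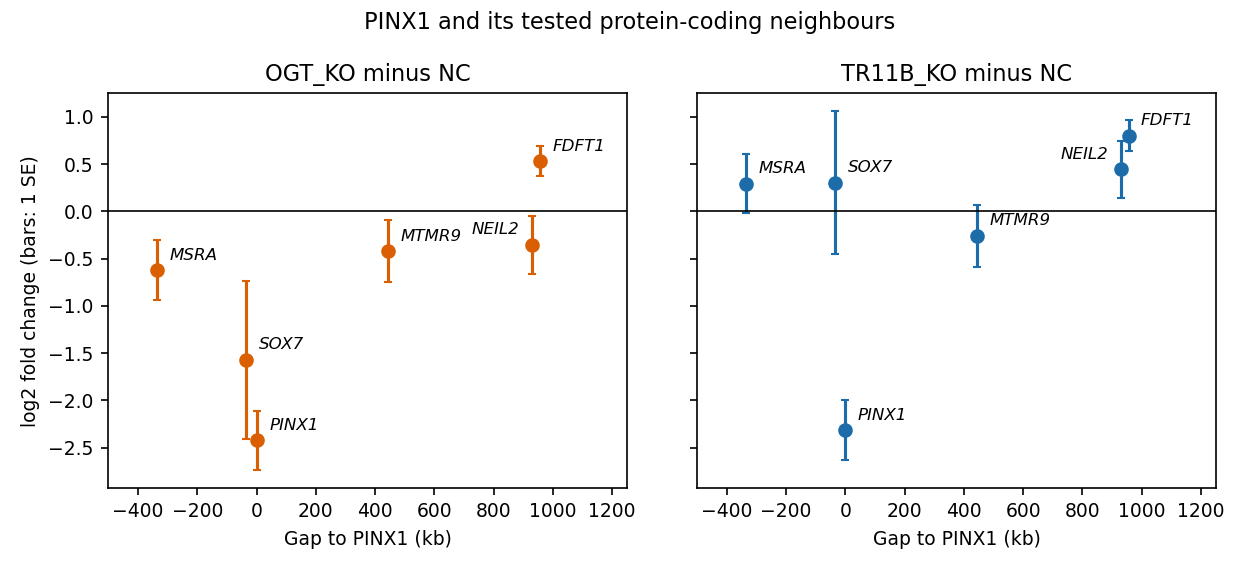
Log2 fold change against NC (bars, 1 standard error) of PINX1 and of the 5 tested protein-coding genes within 1 Mb, by the gap in kb between each gene and PINX1. PINX1 lies at -2.42 and -2.31, and the neighbour with the lowest value, SOX7 in OGT_KO, has a standard error of 0.84.

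The genes whose levels followed PINX1 most closely over the 9 libraries were ARIH2 (Pearson r of log2 CPM 0.992), CDC45 (0.991), CAMK2G (0.991), XBP1 (0.991) and MARCKS (0.99), out of 6863 genes whose log2 CPM averaged 2 or more. The 9 points share 3 groups and their NC libraries, so these values are a description. Each of the 5 was lower in both knockouts, by less than PINX1: the log2 fold changes lay between -0.71 (CAMK2G in OGT_KO) and -1.44 (MARCKS in either). Their direction follows from picking them for likeness to PINX1 and is not a separate result. The other members followed PINX1 less closely: r was 0.767 for TERF2, 0.689 for TERT, 0.652 for TINF2, 0.632 for TEP1, 0.449 for TERF2IP, 0.112 for TERF1, -0.385 for POT1 and -0.602 for ACD.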

How the data were processed

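The authors deposited whole-number read counts per gene, with no normalization, and a second table of FPKM values, scaled by the authors to gene length and library total. The submitters' processing notes list DESeq2, R 3.2.0, HTSeq, HISAT and fastp and name GRCh38; their roles, the annotation and the strand setting are not given in the sources used here. Counts were fitted for all 9 libraries and 3 groups with edgeR 4.0.16 (R 4.3.3): filterByExpr kept 12574 of 19257 genes, libraries were scaled by TMM, and p-values of the robust quasi-likelihood test were adjusted by Benjamini-Hochberg over all tested genes, with calls at an adjusted p under 0.05. Its biological coefficient of variation was 0.241. SE came from the size of the log2 fold change over the root of F. CPM values use TMM-scaled totals. Alternatives used DESeq2 1.42.0, limma 3.58.1 on log2(FPKM + 1) and log2(FPKM + 0.1), other scalings and filters, offsets for length and GC content, a replicate block, and leaving out each library. Gene length came from the ratio of counts to FPKM, GC content from the longest GENCODE transcript (found for 95.5% of tested genes), and positions and promoters from RefSeq GRCh38.p14, which matched 18558 gene names (18336 by symbol, 222 by synonym). Beside the 9 members, up to 3 called genes with the smallest adjusted p were named per list and knockout, as were the tested neighbours of PINX1 within 1 Mb and the 5 genes most like it. The members and the 7 lists of telomere-related genes were chosen with earlier results of these data known.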

Additional observations from a re-analysis of the deposited data

How the results depend on the processing

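The fold changes of the members and of the other genes named from lists or near PINX1, and the counts of calls over the 8 members and over all genes, were recomputed under up to 20 alternatives (19 for POT1, 18 or 19 for SOX7). List counts were recomputed without each library, with the length offsets, by DESeq2 and at an unadjusted p. Differences between the knockouts in list genes, FPKM ratios, level orders and correlations were not recomputed. Over the 8 genes other than PINX1, the calls in OGT_KO numbered 1 with a CPM of at least 1 in 3 libraries, 4 with the 2 compared groups alone and 1 to 3 when a library was left out. In TR11B_KO they numbered 1 with 2 groups, 1 with the length offset and 0 to 2 when a library was left out. Between the knockouts they numbered 1 with the CPM filter, 1 with 2 groups, 1 with the replicate block and 1 to 3 when a library was left out. Same-numbered libraries were not more alike than others: their deviations from the group means correlated at -0.199 to 0.069 (9 pairs), and those of others at -0.1 to 0.216 (18 pairs). Deviations within a group of 3 sum to 0, so these values cannot settle whether a number marks a batch. The block left 1609, 2612 and 3403 calls over all genes, and TERT (-0.65, adjusted p = 0.0579) and TEP1 (0.59, adjusted p = 0.0841) then lost their call between the knockouts, as TINF2 did in TR11B_KO (-0.50, adjusted p = 0.0834).

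Over all genes the 2303, 3469 and 4174 calls became 5095, 2251 and 3145 with 2 groups, and ranged over 1072 to 4536, 1813 to 4463 and 2401 to 5307 when a library was left out. With library totals as the scale, all genes had a median of 0.15, -0.15 and 0.31, and the split was 1369 higher and 890 lower, 1180 and 2030, and 3084 and 1268. Limma on log2(FPKM + 1) split them 1286 and 698, 995 and 1540, and 2940 and 1119, and on log2(FPKM + 0.1) 1488 and 850, 1197 and 2010, and 3277 and 1246.

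The signs that turned belonged to the PINX1 contrast, given without a test, and to values that had not passed the test. With library totals alone they were 0.11 for PINX1, 0.21 for TERF2 and 0.16 for TERF2IP between the knockouts, 0.027 for TERF2IP and 0.035 for TINF2 in OGT_KO, and -0.071 for ACD in TR11B_KO. With the length offset they were 0.14 for PINX1, 0.013 for TERF2 and 0.12 for TERF2IP between the knockouts, and -0.013 for ACD, 0.088 for POT1 and 0.039 for MTMR9 in TR11B_KO. With length and GC content they were 0.29 for PINX1, -0.19 for TERF1 and 0.10 for TERF2IP between the knockouts, 0.11 for TERF2IP and 0.15 for TINF2 in OGT_KO, and 0.087 for TERF1, 0.01 for TERF2IP and 0.065 for MTMR9 in TR11B_KO, where ACD was called lower (-0.29, adjusted p = 0.0399). With limma on log2(FPKM + 1) they were 0.17, 0.22 and 0.29 for PINX1, TERF2 and TERF2IP between the knockouts, 0.02 and 0.033 for TERF2IP and TINF2 in OGT_KO, and -0.085 for ACD in TR11B_KO. On log2(FPKM + 0.1) they were 0.27, 0.27 and 0.34, then 0.021, 0.034 and 0.018 for TERF2IP, TINF2 and TERF1 in OGT_KO, and -0.086 for ACD. In TR11B_KO TERF2IP and POT1 were at 0.002 and 0.007 with DESeq2 and at 0.007 and 0.011 with RLE factors, and TERF2IP at 0.01 with the CPM filter; with the block TERF2IP was at 0.03 between the knockouts. When a library was left out, values ranged over -0.44 to 0.27 for PINX1, -0.27 to 0.12 for TERF2, -0.36 to 0.40 for TERF2IP and -0.039 to 0.53 for TERF1 between the knockouts, -0.31 to 0.15 for TERF1 in OGT_KO, and -0.47 to 0.27 for TERF2IP, -0.13 to 0.36 for ACD, -0.30 to 0.12 for POT1, -0.005 to 0.46 for MSRA and -0.14 to 1.64 for SOX7 in TR11B_KO. The causes were not tested. Limma on log2(FPKM + 1) ended the OGT_KO calls of DKC1 (adjusted p = 0.0995), RUVBL1 (0.182), CBX5 (0.0733), ETS2 (0.132), WT1 (0.094), FDFT1 (0.0518), MYC (0.07), GNL3L (0.056) and PRKDC (0.0517) and the TR11B_KO calls of DKC1 (0.0822), POLA1 (0.0554), ATM (0.251) and ERCC1 (0.0596). Of 34 calls of named list genes, 16 held under every alternative and none changed direction. POT1, with 10 to 71 counts, is the member most limited by depth.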

Other observations

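PARD6A, a cell polarity gene annotated 700 bases from ACD, was chosen after its values were seen. It rose in both knockouts, from 1311 to 1368 counts in NC to 3375 to 4390 in OGT_KO and 2412 to 3241 in TR11B_KO. The log2 fold changes were 1.48 ± 0.22 and 1.25 ± 0.22 (edgeR adjusted p = 0.000547 and 0.00125), and both held under the 20 alternatives. ACD beside it was at 0.34 and 0.11 and did not pass the test. CARMIL2, which overlaps ACD by 58 bases on the opposite strand, was at 0.03 and 0.39 (adjusted p = 0.951 and 0.193).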
